A study of Rattus norvegicus with 18 samples.

Results

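Control T-MBP cells from the spinal cord parenchyma of rats were compared with control T-MBP cells from the spleen. T-MBP cells are CD4+ T cells of the Lewis rat that recognise myelin basic protein, and their transfer into healthy rats starts experimental autoimmune encephalomyelitis, a model of multiple sclerosis. Members were the control libraries alone: 3 from the parenchyma, 3 from the spleen of the experiment on *Ets1* and 3 from the spleen of the experiment on *Grk2*, which together are 9 of the 18 libraries of the series. The parenchymal libraries stem from the experiment on *Ets1*. The rule that selects them uses labels alone and no measured value.

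All 9 libraries hold bulk 3′ mRNA-seq of T-MBP cells sorted for blue fluorescent protein on day 3 after transfer into Lewis rats, when the first signs of disease were seen. The labels give their genotype as WT, and the methods state that such control cells were edited with a non-targeting (NT) guide and transferred together with KO cells that express a green protein, *Ets1*-KO or *Grk2*-KO according to the experiment. Before transfer all cells had been expanded in culture and restimulated with myelin basic protein, so that every library stems from an in vitro activated line and not from naive T cells. The number of rats behind a library and whether the same rats gave parenchyma and spleen are not stated in the labels, so that p values measure the spread between these libraries. Parenchymal cells were taken from the interface of a Percoll gradient and sorted, whereas splenic cells went through erythrocyte lysis and enrichment of CD4+ cells before the sort, and effects of tissue and of isolation therefore cannot be told apart.

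Transferred encephalitogenic T cells first settle in peripheral lymphoid tissue, change their adhesion and chemokine receptors there, and then cross the vessels of the CNS. In the target tissue they meet myelin antigen on local antigen-presenting cells, which triggers the T cell receptor again and with it genes such as the NR4A and EGR factors, the costimulatory receptors of the TNF receptor family and effector cytokines. Exit from lymphoid tissue depends on the sphingosine 1-phosphate receptor S1PR1, and firm arrest on CNS vessels on the integrin pair of α4 and β1 chains.

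The 3 groups differed in more than tissue, and this bears on each result that follows. In a principal component analysis of log2(normalised count + 1), PC1 held 47.3% of the variance and set the Grk2 spleen set, at scores of 49.4 to 50.5, apart from all 6 libraries of the *Ets1* experiment, at -35.3 to -10.3. PC2 held 35.0% and ran from the parenchyma (32.0 to 34.4) through the Grk2 spleen set (3.67 to 12.1) to the Ets1 spleen set (-47.1 to -37.6). Spearman correlations across genes were 0.947 to 0.975 within groups, 0.841 to 0.855 between the parenchyma and the Ets1 spleen set, 0.794 to 0.816 between the parenchyma and the Grk2 spleen set, and 0.777 to 0.847 between both spleen sets. Reads on genes were 1437169 to 1546206 per parenchymal library, 898092 to 1213485 in the Ets1 spleen set and 1168268 to 1314156 in the Grk2 spleen set, higher in all 3 parenchymal than in all 6 splenic libraries (two-sided exact permutation test over 84 labellings, p = 0.0119, the smallest it can give). Replicate 3 of the Ets1 spleen set was the shallowest library. Reads from the mitochondrial genome made up 25.4% to 27.4% in the parenchyma, 17.3% to 18.6% in the Ets1 spleen set and 22.3% to 22.6% in the Grk2 spleen set, and their part in the results was not tested.

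**Figure D1:**
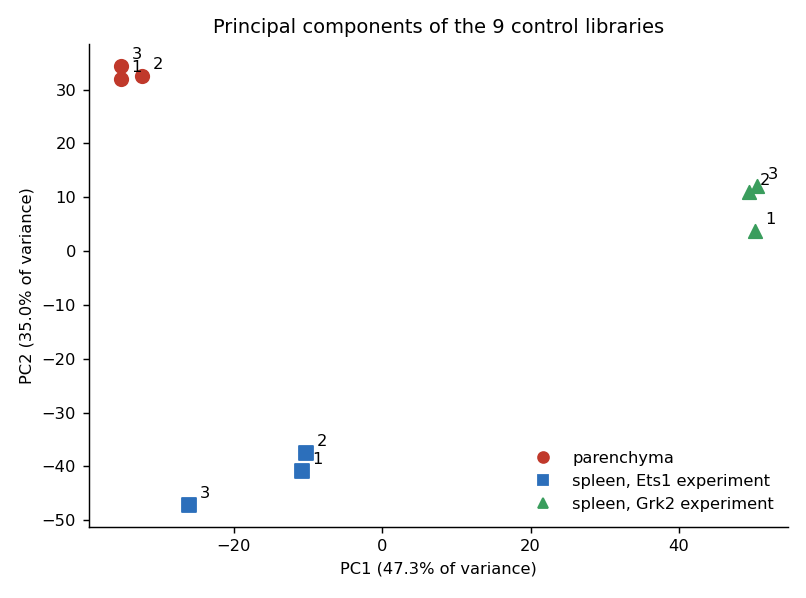
Scores of the 9 control libraries on the first 2 principal components of log2(normalised count + 1) over 7041 genes, 1 point per library, with replicate numbers beside the points. The axes have no unit. The Grk2 spleen set lies to the right, at PC1 scores of 49.4 to 50.5, and the parenchyma and the Ets1 spleen set lie apart on PC2.

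Of 7041 genes with a mean normalised count of at least 10, 3895 differed between both spleen sets at an adjusted p under 0.05 (55.3%), although tissue, genotype and day were the same. The parenchyma differed from the Ets1 spleen set in 2876 genes (40.8%; 1373 higher and 1503 lower) and from the Grk2 spleen set in 3811 genes (54.1%; 1842 higher and 1969 lower). The number of genes that differed from 1 spleen set was therefore no larger than the number between 2 separately made sets of the same tissue. Only genes that differed from both sets in the same direction are called here. By this rule 654 genes were higher in the parenchyma (9.29% of those tested) and 772 were lower (11%), whereas 391 further genes were called in opposite directions against the 2 sets. A change of over 1 on the log2 scale against both sets was seen for 257 higher (3.65%) and 334 lower genes (4.74%), and in 568 of these 591 genes the 3 parenchymal libraries did not overlap the 6 splenic ones. Over all genes tested, all parenchymal libraries lay above all splenic ones in 885 genes and below them in another 885 (12.6% each).

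The same rule was applied with each spleen set in the place of the parenchyma, because any of 3 groups can stand apart from the other two. For the Ets1 spleen set 827 genes were higher (11.7%) and 691 lower (9.81%) than in both other groups, of which 239 (3.39%) and 222 (3.15%) by over 1 on the log2 scale. For the Grk2 spleen set the counts were 1162 (16.5%) and 1141 (16.2%), of which 468 (6.65%) and 418 (5.94%). The number of genes that set the parenchyma apart was thus not larger than the number that set the Grk2 spleen set apart, and the groups of genes below are read against the shares of all genes. The count minimum of 10 is a mean over all 9 libraries. A high level in the parenchyma alone can therefore carry a gene past it and raise a list's share of higher genes. Without a filter beyond 1 read, 748 of 14125 genes were higher against both sets and 736 lower. Over all genes tested the median log2 fold change was 0.00085 against the Ets1 set and -0.019 against the Grk2 set. Log2 fold changes below are differences of mean log2(normalised count + 1), which understate the change of genes with few reads, and values after ± are standard errors. In bulk RNA a lower level in fewer cells and less RNA per cell cannot be told apart.

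Markers of the sorted cell type were abundant in all libraries and those of most other cells were at or near 0. The 14 T cell genes summed to 8486 to 8915 normalised counts in the parenchyma, 7683 to 8168 in the Ets1 spleen set and 7706 to 8104 in the Grk2 spleen set, with *Thy1* without a read in any library. The T cell receptor subunit gene *Cd3d* was at 1342, 1257 and 1219 normalised counts in the parenchyma, 602, 671 and 634 in the Ets1 spleen set and 739.9, 801 and 778 in the Grk2 spleen set. It was called higher in the parenchyma together with *Cd2*, *Cd4* and *Zap70*, while *Cd5*, *Lck* and *Lat* were called lower. The markers of B cells summed to 3.46 to 5.24, of granulocytes to 2.72 to 6.99 and of endothelial cells to 0 to 0.908 in the parenchyma.

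Markers of CNS and myeloid cells were low beside those of T cells. Astrocyte markers summed to 3.63 to 9.50 in the parenchyma and 0 to 1.98 in the spleen libraries, with *Aqp4*, *Slc1a2*, *Slc1a3*, *Gja1*, *Aldh1l1* and *Ntsr2* at 0 everywhere. Microglia and macrophage markers summed to 128.0 to 177 in the parenchyma, 99.03 to 136 in the Ets1 spleen set and 143 to 156 in the Grk2 spleen set, with *Cst3* leading. The 10 oligodendrocyte genes summed to 191 to 209.8 in the parenchyma, 163 to 182 in the Ets1 spleen set and 145 to 158 in the Grk2 spleen set. Their leading gene *Cnp* was not called, whereas *Mbp*, which also has transcripts in haematopoietic cells, was called higher at 64.8, 76.9 and 61.7 in the parenchyma, 32.3, 24.8 and 22.5 in the Ets1 spleen set and 38.9, 34.8 and 38.2 in the Grk2 spleen set. Erythroid markers moved with 1 spleen set, at 30.3 to 60.5 in the Ets1 set against 0 to 0.908 in the parenchyma and at most 3.07 in the Grk2 set. Platelet markers reached 22.9 to 32.7 in the Grk2 set against 0 to 3.03 elsewhere, and CD8 T or NK cell markers 191 to 267 in the Grk2 set against 66.2 to 105 elsewhere. The part of these cells in the differences was not tested.

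**Figure D2:**
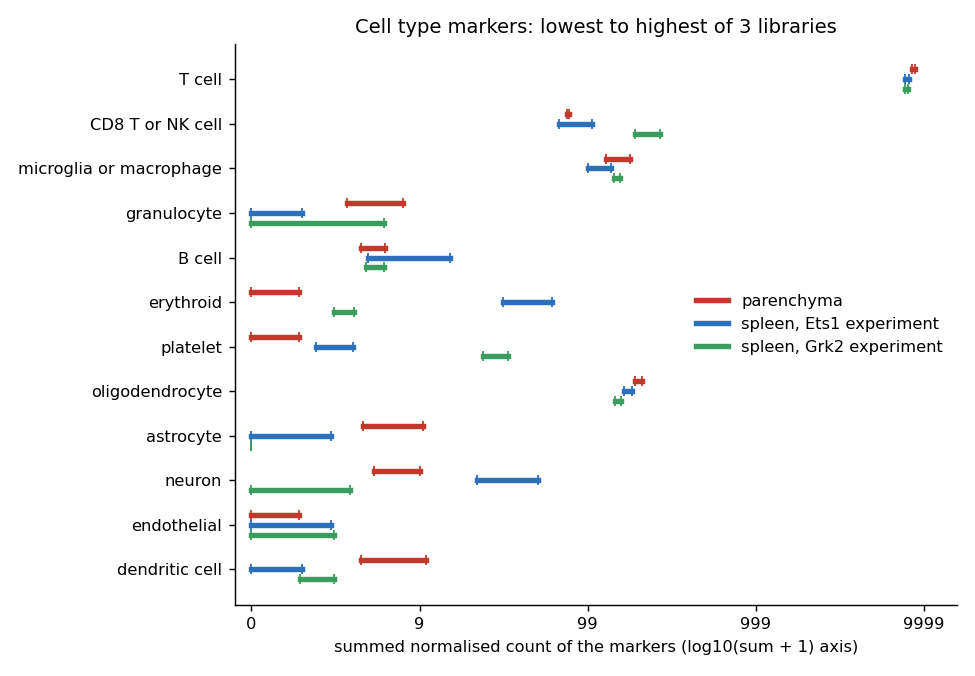
Summed normalised counts of the marker genes of 12 cell types, on a log10(sum + 1) axis. Bars run from the lowest to the highest of 3 libraries per group, and a mark alone is a group with all 3 libraries at 0. T cell markers sum to 7683 or more in every library, while the other sums stay at 267 or less.

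Among genes with no overlap of the groups and a mean of at least 50 normalised counts in the parenchyma, the 12 largest rises by the smaller of both fold changes were those of *Tnfrsf9*, *Col12a1*, *Ccl4*, *Lag3*, *Rgs16*, *Slc16a3*, *B4galnt4*, *Cd93*, *Egr1*, *Il1r1*, *Zeb2* and *Bcl2l11*. *Tnfrsf9* encodes 4-1BB, a costimulatory receptor that appears after triggering of the T cell receptor (chromosome 5, 168009392 to 168035810, plus strand, Rnor_6.0). It was at 221, 197 and 166 normalised counts in the parenchyma, 0, 0 and 0 in the Ets1 spleen set and 2.05, 1.06 and 0 in the Grk2 spleen set. Hardly any *Tnfrsf9* read was found in the spleen libraries, and the groups were far apart. Against the Ets1 set, with 0 reads, the level was at least 176-fold higher when 3 reads over the 3 libraries are taken as the floor, and against the Grk2 set, with 3 reads, the ratio was 193 (95% counting interval 65.8 to 939). Such intervals and floors cover counting error only, since the reads carry no molecular identifiers.

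*Ccl4*, the chemokine MIP-1β (chromosome 10, 70884530 to 70886355, plus strand), was at 1366, 926 and 945 in the parenchyma, 21.2, 31.8 and 23.9 in the Ets1 spleen set and 5.12, 5.28 and 4.78 in the Grk2 spleen set. The parenchymal levels were many times those of either spleen set, with log2 fold changes of 5.34 ± 0.21 against the Ets1 set and 7.45 ± 0.21 against the Grk2 set (limma adjusted p = 1.69e-16 and 3.04e-19). *Lag3*, an inhibitory receptor for MHC class II, was at 240.2, 243 and 222 in the parenchyma, 3.03, 7.94 and 8.45 in the Ets1 spleen set and 3.07, 1.06 and 4.78 in the Grk2 spleen set. *Lag3* had log2 fold changes of 5.08 ± 0.38 against the Ets1 set and 6.02 ± 0.38 against the Grk2 set (limma adjusted p = 5.37e-11 and 1.91e-12). *Egr1*, an immediate early transcription factor, was at 468, 663 and 592 in the parenchyma, 39.4, 47.6 and 81.7 in the Ets1 spleen set and 23.6, 28.5 and 29.6 in the Grk2 spleen set. No spleen library came near the parenchymal range of *Egr1*, and the log2 fold changes were 3.38 ± 0.20 against the Ets1 set and 4.34 ± 0.20 against the Grk2 set (limma adjusted p = 1.01e-12 and 6.89e-15).

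The collagen gene *Col12a1* was at 91.6, 83.9 and 70.8 in the parenchyma, 0, 0.992 and 0 in the Ets1 spleen set and 0, 0 and 0 in the Grk2 spleen set. It stood at 0 or 1 read in every spleen library, with 280 reads over the parenchymal ones, a level at least 81.5-fold above the Grk2 set and 223 times (39.7 to 8829) that of the Ets1 set. *Rgs16*, a regulator of G protein signalling, was at 95.03, 77.8 and 57.2 in the parenchyma, 0, 0 and 0 in the Ets1 spleen set and 3.07, 1.06 and 0.955 in the Grk2 spleen set. Its level was at least 69.5-fold above that of the Ets1 set. *Cd93*, a transmembrane glycoprotein, was at 348, 387 and 362 in the parenchyma, 36.4, 29.8 and 31.0 in the Ets1 spleen set and 30.7, 27.4 and 23.9 in the Grk2 spleen set. All parenchymal libraries were far above all splenic ones, and log2 fold changes of *Cd93* were 3.46 ± 0.17 against the Ets1 set and 3.70 ± 0.17 against the Grk2 set (limma adjusted p = 2.1e-14 and 6.72e-15). *Il1r1*, the signalling receptor for IL-1, was at 62.2, 110.1 and 85.3 in the parenchyma, 0, 2.98 and 0 in the Ets1 spleen set and 7.17, 9.50 and 5.73 in the Grk2 spleen set. Its level also differed between both spleen sets, by -2.39 ± 0.49 on the log2 scale (Ets1 minus Grk2 set, limma adjusted p = 0.000202).

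The other members of the 12 largest rises were the monocarboxylate transporter *Slc16a3*, which exports lactate, with log2 fold changes of 3.55 ± 0.48 and 4.41 ± 0.48 against the Ets1 and the Grk2 set, the glycosyltransferase gene *B4galnt4* (3.77 ± 0.38 and 3.54 ± 0.38), the repressor *Zeb2* (3.19 ± 0.39 and 3.44 ± 0.39) and *Bcl2l11* (3.87 ± 0.31 and 3.01 ± 0.31), which encodes the proapoptotic protein BIM. *Bcl2l11* was at 149, 128 and 131 in the parenchyma, 10.1, 12.9 and 4.23 in the Ets1 spleen set and 11.3, 16.9 and 21.0 in the Grk2 spleen set. All 4 were called against both sets with no overlap of the groups. The rule that chose these 12 genes had 447 candidates, and the first gene outside it, *Adamts14*, had a smaller log2 fold change of 2.94 where the last inside, *Bcl2l11*, had 3.01.

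**Figure D3:**
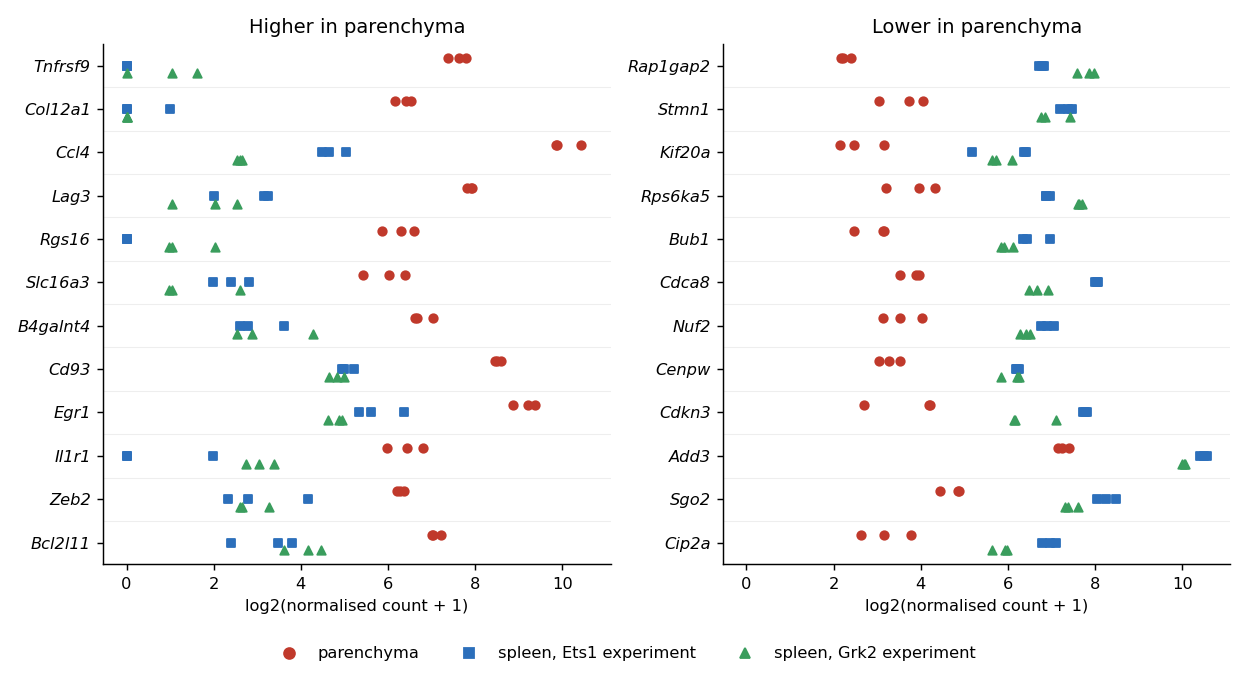
Normalised counts, as log2(normalised count + 1), of the 12 genes with the largest rise and the 12 with the largest fall in the parenchyma, by the smaller of both fold changes, 1 point per library. In every row the 3 parenchymal points are clear of the 6 splenic ones, as the choice of these genes requires.

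Among the 12 largest falls, 6 are genes of the spindle, the kinetochore and cytokinesis, namely *Kif20a*, *Bub1*, *Cdca8*, *Nuf2*, *Cenpw* and *Sgo2*, and *Cdkn3* encodes a phosphatase of cyclin-dependent kinases. The largest fall was that of *Rap1gap2*, a GTPase-activating protein for RAP1, the small GTPase that activates integrins (chromosome 10, 61177935 to 61361250, minus strand, Rnor_6.0). It was at 4.32, 3.496 and 3.63 normalised counts in the parenchyma, 104, 112 and 108 in the Ets1 spleen set and 231, 189.9 and 252 in the Grk2 spleen set. Its log2 fold changes were -4.51 ± 0.20 against the Ets1 set and -5.54 ± 0.20 against the Grk2 set (limma adjusted p = 1.79e-15 and 4.07e-17). *Stmn1*, a microtubule-destabilising protein of proliferating cells, was at 15.6, 12.2 and 7.26 in the parenchyma, 177, 165 and 145 in the Ets1 spleen set and 171, 114 and 108 in the Grk2 spleen set. *Add3*, an adducin of the membrane skeleton, was at 142, 150.3 and 167 in the parenchyma, 1359, 1526 and 1441 in the Ets1 spleen set and 1063, 1049.7 and 1026 in the Grk2 spleen set. The kinase gene *Rps6ka5* (MSK1) was at 14.7, 19.2 and 8.17 in the parenchyma, 124, 117 and 116 in the Ets1 spleen set and 197, 194 and 205 in the Grk2 spleen set. All 3 fell against both sets without overlap, and the log2 fold changes of *Add3* were -3.23 ± 0.10 against the Ets1 set and -2.77 ± 0.10 against the Grk2 set (limma adjusted p = 6.05e-18 and 5.08e-17). Of 440 candidates, the last inside this choice was *Cip2a* at -2.67 and the first outside was *Cdk1* at -2.65.

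Genes of the cell cycle were lower in the parenchyma, and of all lists compared mitosis held the largest share of calls. Of 47 tested genes of mitosis 45 were lower in the parenchyma against both spleen sets and 0 were higher, which is 95.7% beside 11% of all genes. The median log2 fold change was -3.19 against the Ets1 set and -2.31 against the Grk2 set. Summed over the list, normalised counts were 2086, 2472 and 1919 in the parenchyma, 16058, 13827 and 15526 in the Ets1 spleen set and 8906, 7207 and 6944 in the Grk2 spleen set. Both members that were not called, *Incenp* (-2.57 ± 0.14 and 0.15 ± 0.14) and *Ska3* (-1.90 ± 0.39 and -0.64 ± 0.39), fell against the Ets1 set alone.

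*Cdca8*, a subunit of the chromosomal passenger complex, was at 13.8, 10.5 and 14.5 normalised counts in the parenchyma, 266, 264 and 254 in the Ets1 spleen set and 119.9, 88.6 and 100.3 in the Grk2 spleen set. *Bub1*, a kinase of the spindle checkpoint, was at 7.78, 7.87 and 4.54 in the parenchyma, 123, 80.4 and 85.9 in the Ets1 spleen set and 68.7, 55.9 and 59.2 in the Grk2 spleen set. *Kif20a*, a kinesin of cytokinesis, was at 3.46, 7.87 and 4.54 in the parenchyma, 83.9, 81.4 and 35.2 in the Ets1 spleen set and 67.6, 51.7 and 48.7 in the Grk2 spleen set. Cyclin A2 (*Ccna2*) was at 4.32, 0.874 and 2.72 in the parenchyma, 56.6, 39.7 and 28.2 in the Ets1 spleen set and 39.96, 40.1 and 20.1 in the Grk2 spleen set. In each of these 4 genes all parenchymal libraries were far below all splenic ones. The log2 fold changes of *Cdca8* were -4.24 ± 0.18 against the Ets1 set and -2.90 ± 0.18 against the Grk2 set (limma adjusted p = 7.01e-16 and 1.04e-12). Those of *Bub1* were -3.66 ± 0.25 and -3.04 ± 0.25, and those of *Ccna2* -3.62 ± 0.40 and -3.30 ± 0.40. *Mki67*, the proliferation marker Ki-67, which was singled out after its values were seen, was at 194, 191 and 153 in the parenchyma, 1542, 1223 and 1635 in the Ets1 spleen set and 624, 496 and 491 in the Grk2 spleen set. *Mki67* had log2 fold changes of -3.02 ± 0.13 against the Ets1 set and -1.57 ± 0.13 against the Grk2 set (limma adjusted p = 7.01e-16 and 1.75e-10).

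Genes of DNA replication and S phase followed, with 37 of 43 tested members lower (86.0%, beside 11% of all genes) and 0 higher. Their median log2 fold changes were -2.13 and -1.39. The summed counts were 1732, 1992 and 1749 in the parenchyma, 7248, 6240.2 and 7232 in the Ets1 spleen set and 4606, 3265 and 3198 in the Grk2 spleen set. *Cdt1*, the licensing factor that loads the replicative helicase, was at 5.18, 4.37 and 4.54 in the parenchyma, 52.5, 77.4 and 38.0 in the Ets1 spleen set and 59.4, 38.0 and 43.9 in the Grk2 spleen set. Its log2 fold changes were -3.27 ± 0.29 against the Ets1 set and -3.06 ± 0.29 against the Grk2 set (limma adjusted p = 1.53e-09 and 3.86e-09). Cyclin E2 (*Ccne2*), which drives entry into S phase, was at 1.73, 1.75 and 3.63 in the parenchyma, 39.4, 28.8 and 38.0 in the Ets1 spleen set and 61.5, 25.3 and 22.9 in the Grk2 spleen set. Parenchymal libraries were lowest for both genes, and *Ccne2* fell, with log2 fold changes of -3.47 ± 0.38 and -3.38 ± 0.38. Cyclin E1 (*Ccne1*) was also lower, with -3.94 ± 0.50 and -3.03 ± 0.50. The 6 members that were not called were *Chaf1a*, *Chaf1b*, *E2f2*, *Rfc1*, *Rfc2* and *Slbp*. Both spleen sets differed here too, since 31 mitosis and 22 S phase genes were higher in the Ets1 than in the Grk2 spleen set and 1 and 2 were lower, so that the level of these lists ran from the Ets1 spleen set through the Grk2 spleen set to the parenchyma.

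**Figure D4:**
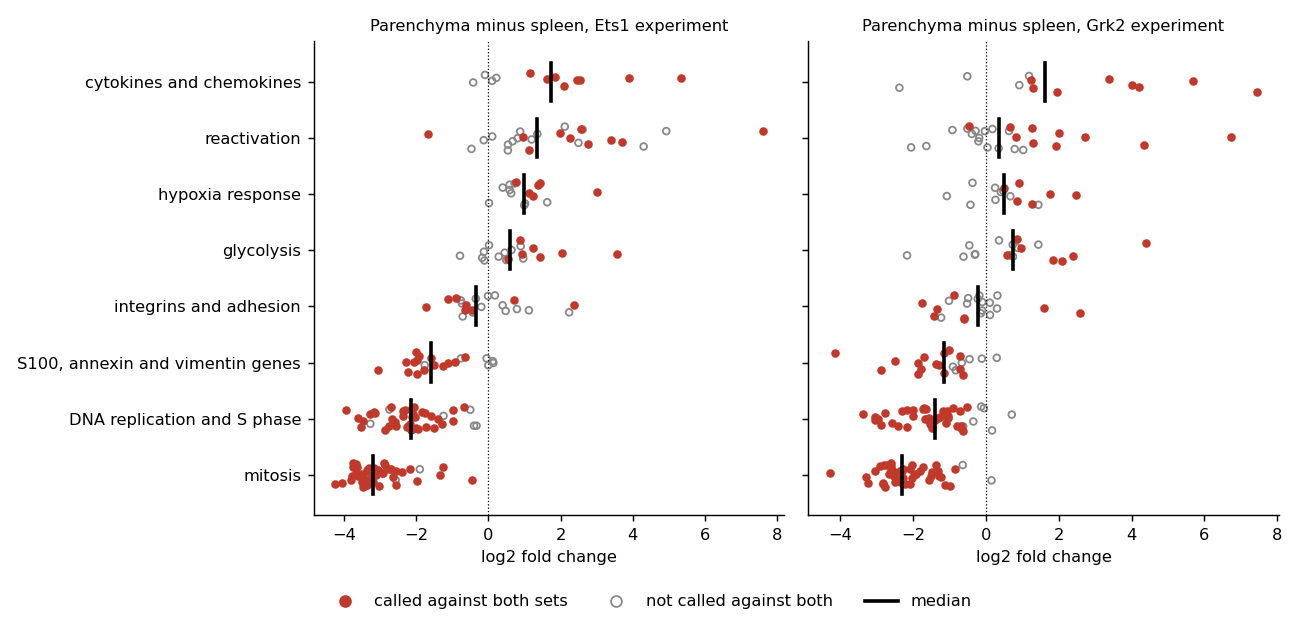
Log2 fold changes of the tested members of 8 gene lists, against the Ets1 spleen set (left) and the Grk2 spleen set (right), 1 point per gene. Filled points are genes called against both sets, and bars mark the median, which for mitosis lies at -3.19 and -2.31. Both panels share the 3 parenchymal libraries.

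Promoters of these genes are shown because the lists that fell together hold short sequence elements that are known from cell cycle genes. RefSeq windows of 250 bases before to 50 after the start of transcription (build GRCr8) were found for 42 of the 47 mitosis genes and 37 of the 43 S phase genes tested, 1 window per symbol. The element TTTGAA, the cell cycle homology region, was searched on both strands and was in 32 of 42 mitosis promoters (76.2%), beside 18.1% of all 27457 promoters and 11.9% of those of genes tested. CCAAT, the box bound by NF-Y, was in 30 of 42 (71.4%) beside 37.7% and 38.8%. TTCCCGC or TTGGCGC, forms of the E2F site, were in 20 of 37 S phase promoters (54.1%) beside 6.67% and 13.8%, and in 7 of 42 mitosis promoters. These lists were assembled from textbook cell cycle genes, so that the shares describe the lists and not the measurement.

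Among all 334 genes that fell by over 1 against both sets, 281 had a window, with TTTGAA in 32.0%, CCAAT in 55.2% and the E2F forms in 24.2%. Among the 257 genes that rose by over 1, 183 had a window, with 10.4%, 29.0% and 9.29%. The AP-1 site TGANTCA was in 4.98% of the first and 4.92% of the second group, beside 4.35% of the genes tested. A match shows letters in this window and no binding. In the sequences below, given 5′ to 3′ on the strand of the gene, capitals mark TTTGAA and CCAAT (or ATTGG, its complement) for *Cdca8* (chr5:142483150-142483449, minus strand), where TTTGAA and an ATTGG share 1 base, CCAAT and TTGGCGC for *Stmn1* (chr5:151964929-151965228, plus strand), and the E2F forms for *Cdt1* (chr19:67528999-67529298, plus strand).
Cdca8: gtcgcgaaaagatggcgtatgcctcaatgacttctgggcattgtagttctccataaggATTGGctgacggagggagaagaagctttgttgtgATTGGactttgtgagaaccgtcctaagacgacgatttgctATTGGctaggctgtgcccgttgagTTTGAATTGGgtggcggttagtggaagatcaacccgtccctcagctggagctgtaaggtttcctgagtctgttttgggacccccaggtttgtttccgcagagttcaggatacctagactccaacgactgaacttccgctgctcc
Stmn1: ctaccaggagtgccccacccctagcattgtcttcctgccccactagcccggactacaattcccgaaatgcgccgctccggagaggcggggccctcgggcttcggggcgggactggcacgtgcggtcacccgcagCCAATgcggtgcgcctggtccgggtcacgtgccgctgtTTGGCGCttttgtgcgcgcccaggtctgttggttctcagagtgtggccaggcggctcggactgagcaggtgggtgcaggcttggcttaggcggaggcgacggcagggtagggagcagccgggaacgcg
Cdt1: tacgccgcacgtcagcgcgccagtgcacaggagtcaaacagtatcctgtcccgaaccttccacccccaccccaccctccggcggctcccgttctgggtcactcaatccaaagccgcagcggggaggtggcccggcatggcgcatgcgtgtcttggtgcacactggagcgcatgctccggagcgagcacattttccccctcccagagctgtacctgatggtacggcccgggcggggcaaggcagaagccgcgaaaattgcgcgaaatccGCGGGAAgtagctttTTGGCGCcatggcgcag

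In *Cdca8* the TTTGAA match begins 94 bases before the start and matches to the CCAAT box begin 192, 158, 118 and 89 bases before it. In *Cdt1* both E2F matches lie behind the start, the first at 18 bases.

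Genes that T cells switch on after antigen contact were more often higher than lower in the parenchyma. Of 25 tested genes of reactivation 9 were called higher against both sets (36.0%, beside 9.29% of all genes) and 1, *Zbtb32*, lower. The median log2 fold change was 1.36 against the Ets1 set but 0.35 against the Grk2 set. Against the Ets1 set alone 19 of 25 were higher and 2 lower, and against the Grk2 set alone 10 were higher and 5 lower. Between the spleen sets, 15 of 25 were lower and 2 higher in the Ets1 than in the Grk2 set. Of the 35 listed genes some did not reach the count minimum, and *Tnfrsf9*, with spleen means under 10, passed it through its parenchymal level. Without a filter beyond 1 read, 14 of 34 members were higher and 0 lower against both sets. Besides *Tnfrsf9* and *Egr1*, the largest rise was that of *Tnfrsf4*, the costimulatory receptor OX40, at 159.8, 168 and 139 in the parenchyma, 17.2, 5.95 and 12.7 in the Ets1 spleen set and 23.6, 21.1 and 23.9 in the Grk2 spleen set. Parenchymal levels of *Tnfrsf4* exceeded every splenic level severalfold, and log2 fold changes were 3.70 ± 0.28 against the Ets1 set and 2.71 ± 0.28 against the Grk2 set (limma adjusted p = 5.1e-11 and 9.9e-09). *Zbtb32*, a repressor induced in activated lymphocytes, went the other way at 50.1, 36.7 and 30.9 in the parenchyma, 132, 124 and 117 in the Ets1 spleen set and 49.2, 60.1 and 51.6 in the Grk2 spleen set. Its parenchymal levels overlapped those of the Grk2 set, and it was not called under 14 of 23 alternative settings.

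The NR4A receptors are nuclear receptors that respond quickly to the T cell receptor, and they did not separate the parenchyma from both sets alike. *Nr4a3* was at 64.8, 36.7 and 43.6 in the parenchyma, 2.02, 0.992 and 1.41 in the Ets1 spleen set and 35.9, 52.8 and 58.3 in the Grk2 spleen set. It was high in the parenchyma and the Grk2 spleen set and nearly absent from the Ets1 spleen set. *Nr4a3* had log2 fold changes of 4.30 ± 0.33 against the Ets1 set and -0.029 ± 0.33 against the Grk2 set (limma adjusted p = 9.54e-11 and 0.948). *Nr4a1* and the AP-1 genes *Fos* and *Jun* were singled out after their values were seen. *Nr4a1* was at 71.7, 72.5 and 74.4 in the parenchyma, 0, 4.96 and 1.41 in the Ets1 spleen set and 58.4, 43.3 and 28.7 in the Grk2 spleen set, again lowest in the Ets1 spleen set. *Fos* was at 129, 95.3 and 119 in the parenchyma, 257, 214 and 223 in the Ets1 spleen set and 18.4, 28.5 and 20.1 in the Grk2 spleen set. *Jun* was at 170.2, 179 and 166 in the parenchyma, 406, 294 and 341 in the Ets1 spleen set and 25.6, 28.5 and 23.9 in the Grk2 spleen set. Both AP-1 genes were highest in the Ets1 and lowest in the Grk2 spleen set, with the parenchyma between.

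Of the transcripts of secreted effector molecules that reached the count minimum, most were higher. Of 12 tested cytokine and chemokine genes 8 were higher against both sets (66.7%, beside 9.29% of all genes) and 0 lower. Another 26 of the 38 listed genes did not reach the count minimum. This minimum is a mean over all 9 libraries, so that a high level in the parenchyma alone can carry a gene past it. *Ifng* and *Il21* passed in this way, with spleen means under 10, and the share depends on it. Without a filter beyond 1 read, 10 of 25 members were higher and 0 lower. Median log2 fold changes were 1.74 and 1.62. *Ifng*, which encodes interferon-γ, the hallmark cytokine of TH1 cells, was at 63.1, 42.0 and 30.0 in the parenchyma, 7.07, 6.95 and 5.63 in the Ets1 spleen set and 5.12, 3.17 and 1.91 in the Grk2 spleen set. Its log2 fold changes were 2.55 ± 0.42 against the Ets1 set and 3.39 ± 0.42 against the Grk2 set (limma adjusted p = 2.18e-05 and 2.26e-07). *Il21*, which acts on B cells and on T helper cells themselves, was at 38.0, 35.8 and 33.6 in the parenchyma, 0, 2.98 and 2.82 in the Ets1 spleen set and 0, 2.11 and 2.87 in the Grk2 spleen set. Both cytokines were low in all spleen libraries. The log2 fold changes of *Il21* were 3.89 ± 0.63 against the Ets1 set and 4.005 ± 0.63 against the Grk2 set (limma adjusted p = 1.89e-05 and 8.35e-06). *Il17a* and *Ccl3*, which were singled out after their values were seen, also passed the test. *Il17a*, the hallmark cytokine of TH17 cells, was at 360.2, 316 and 229.7 in the parenchyma, 65.7, 65.5 and 74.7 in the Ets1 spleen set and 17.4, 19.0 and 10.5 in the Grk2 spleen set. *Ccl3*, the chemokine MIP-1α, was at 322, 325 and 239.7 in the parenchyma, 41.4, 64.5 and 53.5 in the Ets1 spleen set and 2.05, 5.28 and 8.60 in the Grk2 spleen set. For both genes the Grk2 spleen set held the lowest levels. The remaining 3 genes that rose, also singled out after their values were seen, were the chemokine *Ccl5* (1.16 ± 0.14 and 1.96 ± 0.14), the growth factor *Csf1* (1.85 ± 0.28 and 1.24 ± 0.28) and *Il22* (1.63 ± 0.26 and 1.28 ± 0.26).

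Of 10 tested cytotoxic granule genes, out of 21 listed, 4 were higher and 1 lower. Of all genes tested 9.29% were higher and 11% lower by the same rule, so that the 1 lower gene is near the share of all genes. Perforin (*Prf1*), the pore-forming protein of cytotoxic granules, was at 1392, 1254 and 1177 normalised counts in the parenchyma, 284, 209 and 190.2 in the Ets1 spleen set and 203, 175 and 164 in the Grk2 spleen set. All parenchymal libraries lay far above all splenic ones, with log2 fold changes of 2.50 ± 0.13 against the Ets1 set and 2.81 ± 0.13 against the Grk2 set (limma adjusted p = 6.96e-14 and 6.84e-15). Granzyme A (*Gzma*) was at 59.6, 42.8 and 53.6 in the parenchyma, 15.2, 12.9 and 15.5 in the Ets1 spleen set and 5.12, 2.11 and 0.955 in the Grk2 spleen set. The proteoglycan serglycin (*Srgn*), which packs granule contents, was at 865, 875 and 778 in the parenchyma, 220.3, 251 and 197 in the Ets1 spleen set and 557, 629.8 and 647 in the Grk2 spleen set. The Grk2 spleen set lay much closer to the parenchyma. *Serpinb9*, an inhibitor of granzyme B, fell at 107, 89.2 and 95.3 in the parenchyma, 135, 194 and 127 in the Ets1 spleen set and 205, 219 and 188 in the Grk2 spleen set.

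Inhibitory receptors did not move as 1 group. Besides *Lag3*, *Ctla4* and *Tox* were called higher, and *Vsir* and *Cd5* lower, of 6 tested. These shares are 50.0% and 33.3%, beside 9.29% and 11% of all genes. *Lag3*, with spleen means under 10, passed the count minimum through its parenchymal level, and most of the 20 listed genes did not reach it. Without a filter beyond 1 read, 4 of 16 members were higher and 2 lower. *Ctla4*, a competitor of CD28 for its ligands, was at 199, 179 and 198 in the parenchyma, 57.6, 44.7 and 36.6 in the Ets1 spleen set and 124, 146 and 137 in the Grk2 spleen set. *Ctla4* had log2 fold changes of 2.05 ± 0.16 against the Ets1 set and 0.50 ± 0.16 against the Grk2 set (limma adjusted p = 1.43e-10 and 0.011). *Vsir*, which encodes the checkpoint molecule VISTA, was at 169, 141 and 149.8 in the parenchyma, 444, 464 and 458 in the Ets1 spleen set and 308, 311 and 366 in the Grk2 spleen set. *Cd5*, a negative regulator of T cell receptor signalling, was at 69.1, 84.8 and 78.1 in the parenchyma, 255, 199 and 119.7 in the Ets1 spleen set and 268, 288 and 285 in the Grk2 spleen set. Both were lower in all parenchymal libraries than in any splenic one. *Tox*, a factor of exhausted T cells, had a smaller log2 fold change of 0.72 and was not called under 10 of 22 alternative settings.

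Receptors for sphingosine 1-phosphate were lower in the parenchyma. *S1pr1* (chromosome 2, 218654553 to 218658761, minus strand, Rnor_6.0) was at 57.9, 72.5 and 75.3 normalised counts in the parenchyma, 251, 319 and 290.2 in the Ets1 spleen set and 306, 319.7 and 303 in the Grk2 spleen set. Parenchymal levels lay far below those of both spleen sets, whose difference from each other was -0.12 ± 0.13 on the log2 scale (Ets1 minus Grk2 set, limma adjusted p = 0.474). The log2 fold changes of *S1pr1* were -2.05 ± 0.13 against the Ets1 set and -2.17 ± 0.13 against the Grk2 set (limma adjusted p = 5.04e-12 and 1.36e-12). The related receptor *S1pr4* was at 126, 136 and 139 in the parenchyma, 546, 479 and 479 in the Ets1 spleen set and 293, 314 and 352 in the Grk2 spleen set, with log2 fold changes of -1.90 ± 0.12 and -1.25 ± 0.12. These receptors and *Gpr15* were among the 4 of 14 tested chemokine and egress receptors that fell (28.6%, beside 11% of all genes).

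The 3 receptors of this list that rose (21.4%, beside 9.29% of all genes) were chemokine receptors. *Ccr3* was at 452, 402 and 407 in the parenchyma, 108, 154 and 103 in the Ets1 spleen set and 196, 256 and 266 in the Grk2 spleen set. *Ccr6*, the receptor for CCL20, was at 136, 130.2 and 154 in the parenchyma, 17.2, 17.9 and 8.45 in the Ets1 spleen set and 71.7, 68.6 and 77.4 in the Grk2 spleen set. The parenchymal level of *Ccr6* was many times that of the Ets1 spleen set and closer to that of the Grk2 spleen set. *Cxcr3*, whose ligands are chemokines induced by interferon, was at 438, 429 and 424 in the parenchyma, 356, 383 and 378 in the Ets1 spleen set and 285, 299 and 332 in the Grk2 spleen set. It was called against the Grk2 set (0.50 ± 0.11, adjusted p = 0.000346) and not against the Ets1 set (0.21 ± 0.11, adjusted p = 0.12).

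Of 21 tested genes of integrins and adhesion 6 were lower (28.6%, beside 11% of all genes) and 2 higher (9.52%, beside 9.29%). The count of higher genes fell to 0 without replicate 2 or replicate 3 of the parenchyma, and to 1 without replicate 1 of the parenchyma or replicate 1 or 2 of the Ets1 spleen set. *Itgb1*, the β1 integrin chain, was at 1171, 1425 and 1190.2 in the parenchyma, 2826, 2783 and 2562 in the Ets1 spleen set and 3152, 3339 and 3102 in the Grk2 spleen set. Every parenchymal library was clearly below every splenic one, and log2 fold changes were -1.11 ± 0.097 against the Ets1 set and -1.35 ± 0.097 against the Grk2 set (limma adjusted p = 8.39e-10 and 2.62e-11). Its partner *Itga4*, the α4 chain, was at 293, 254 and 318 in the parenchyma, 226, 230.2 and 311 in the Ets1 spleen set and 285, 338 and 303 in the Grk2 spleen set. The groups overlapped and there was no call, with log2 fold changes of 0.18 ± 0.13 against the Ets1 set and -0.099 ± 0.13 against the Grk2 set (limma adjusted p = 0.286 and 0.546). *Itga6*, another partner of β1, was at 45.8, 35.0 and 35.4 in the parenchyma, 72.8, 70.5 and 74.7 in the Ets1 spleen set and 119.9, 126 and 152 in the Grk2 spleen set. *Cd226*, an adhesion receptor for CD155, was at 206, 194 and 159 in the parenchyma, 304, 295 and 268 in the Ets1 spleen set and 331, 339 and 352 in the Grk2 spleen set. Both fell. *Itga1*, the α1 chain of the collagen receptor VLA-1, was called higher at 43.2, 50.7 and 71.7 in the parenchyma, 32.3, 27.8 and 38.0 in the Ets1 spleen set and 26.6, 12.7 and 15.3 in the Grk2 spleen set. It was not called under 6 of 22 alternative settings. *Rapgef1*, an exchange factor that activates RAP1, was at 13.8, 31.5 and 26.3 in the parenchyma, 7.07, 3.97 and 1.41 in the Ets1 spleen set and 2.05, 3.17 and 3.82 in the Grk2 spleen set. Its log2 fold changes were 2.36 ± 0.53 and 2.58 ± 0.53.

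The choice of the genes that the study names is not independent evidence of their direction. Among the 15 tested, 2 rose, *Prdm1* among them, and 3 fell, *Itgb1*, *S1pr1* and *Gnai2*. These shares were near those of all genes tested, of which 9.29% rose and 11% fell by the same rule. *Prdm1*, the repressor BLIMP-1, was at 409, 364 and 373 in the parenchyma, 163, 171 and 193 in the Ets1 spleen set and 151, 188 and 173 in the Grk2 spleen set. The spleen sets overlapped each other and lay below the parenchyma, and log2 fold changes were 1.12 ± 0.12 against the Ets1 set and 1.16 ± 0.12 against the Grk2 set (limma adjusted p = 6.05e-08 and 2.32e-08). *Gnai2*, the Gαi subunit behind chemokine receptors, was at 1471, 1541 and 1272 in the parenchyma, 2849, 2782 and 2967 in the Ets1 spleen set and 1780.0, 1729 and 1649 in the Grk2 spleen set, with a fall by 0.27 against the Grk2 set and a call that was lost under 4 of 23 alternatives. *Tbx21*, the TH1 master factor T-bet, and *Hsp90b1*, the chaperone of integrins, were called in opposite directions against the 2 sets, with log2 fold changes of -0.38 ± 0.12 and 0.56 ± 0.12 and of -0.39 ± 0.12 and 0.66 ± 0.12. *Ets1* itself was at 2151, 2391 and 2126 in the parenchyma, 1815, 1881 and 2002 in the Ets1 spleen set and 2149.9, 2361 and 2297 in the Grk2 spleen set. Its log2 fold changes were 0.23 ± 0.093 against the Ets1 set and -0.031 ± 0.093 against the Grk2 set (limma adjusted p = 0.0533 and 0.797). *Grk2*, the kinase that desensitises S1PR1, was at 175, 209.8 and 202 in the parenchyma, 199, 197 and 180.3 in the Ets1 spleen set and 157, 158 and 134 in the Grk2 spleen set. It was called higher against the Grk2 set (0.38 ± 0.13, limma adjusted p = 0.0144) and not against the Ets1 set (0.022 ± 0.13, limma adjusted p = 0.915). *Foxo1*, *Cbfb* and *Ska3* were called against 1 set each, *Foxo1* being higher than in the Ets1 set (0.97 ± 0.15 and -0.095 ± 0.15), *Cbfb* lower than in the Grk2 set (-0.23 ± 0.15 and -1.51 ± 0.15) and *Ska3* lower than in the Ets1 set. *Fermt3*, the integrin activator kindlin-3, had log2 fold changes of 0.39 ± 0.16 and -0.10 ± 0.16, with limma adjusted p of 0.0475 and 0.603. It was thus called against the Ets1 set alone.

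Of 20 tested factors of T helper lineages 7 were higher (35.0%, beside 9.29% of all genes) and 1, *Gata3*, lower (5.0%, beside 11%). Without replicate 3 of the Ets1 spleen set 2 were lower. *Zeb2*, with spleen means under 10, passed the count minimum through its parenchymal level. Without a filter beyond 1 read, 7 of 27 members were higher and 1 lower. *Hif1a*, the oxygen-regulated subunit of hypoxia-inducible factor 1, which also serves TH17 differentiation, was at 1751, 1421 and 1701 normalised counts in the parenchyma, 220.3, 245 and 238 in the Ets1 spleen set and 290.0, 317 and 349 in the Grk2 spleen set. No splenic library came near the parenchymal range, with log2 fold changes of 2.78 ± 0.11 against the Ets1 set and 2.35 ± 0.11 against the Grk2 set (limma adjusted p = 3.02e-16 and 6.89e-15). *Maf*, a factor of IL-10 and IL-21 expression, was at 332, 368 and 314 in the parenchyma, 92.0, 109 and 98.6 in the Ets1 spleen set and 48.2, 63.3 and 62.1 in the Grk2 spleen set, with 1.75 ± 0.15 and 2.53 ± 0.15. *Gata3*, the TH2 factor, was at 335, 261 and 323 in the parenchyma, 659, 573 and 562 in the Ets1 spleen set and 467, 460.0 and 503 in the Grk2 spleen set. *Gata3* had log2 fold changes of -0.97 ± 0.11 against the Ets1 set and -0.64 ± 0.11 against the Grk2 set (limma adjusted p = 1.6e-07 and 3.81e-05).

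Among the tested receptors for inflammatory cytokines more rose than fell. Of 22 tested out of 41 listed, 7 were higher (31.8%, beside 9.29% of all genes) and 2 lower (9.09%, beside 11%). *Il1r1* and *Il12rb2*, with spleen means under 10, passed the count minimum through their parenchymal levels. Without a filter beyond 1 read, 7 of 38 members were higher and 1 lower. Next to *Il1r1*, *Ifngr1*, the ligand-binding chain for interferon-γ, was at 1247, 1416 and 1392 in the parenchyma, 272, 298 and 216 in the Ets1 spleen set and 419, 448 and 451 in the Grk2 spleen set. Its log2 fold changes were 2.38 ± 0.11 against the Ets1 set and 1.62 ± 0.11 against the Grk2 set (limma adjusted p = 1.09e-14 and 1.8e-11). *Il12rb2*, the chain that makes TH1 cells respond to IL-12, was at 27.6, 18.4 and 32.7 in the parenchyma, 4.04, 0.992 and 1.41 in the Ets1 spleen set and 9.22, 7.39 and 9.55 in the Grk2 spleen set. *Tnfrsf25*, the death receptor DR3, fell at 185, 198 and 197 in the parenchyma, 369.9, 331 and 373 in the Ets1 spleen set and 544, 632 and 687 in the Grk2 spleen set, as did *Il18r1* to a lesser degree (-0.79 ± 0.14 and -0.38 ± 0.14). *Il18r1* lost its call under 6 of 23 alternatives, and the count of lower genes was 1 without replicate 2 of the parenchyma or replicate 2 or 3 of the Grk2 spleen set.

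Where genes of sugar use and of the response to low oxygen were called, they were higher. Of 18 tested glycolysis genes 7 were higher (38.9%) and 0 lower, with median log2 fold changes of 0.59 and 0.74. Of 15 tested hypoxia genes 6 were higher and 0 lower, with medians of 0.99 and 0.51. Of all genes tested 9.29% were higher and 11% lower by the same rule. *Hk1*, a hexokinase that commits glucose to glycolysis, was at 123, 138 and 119.8 in the parenchyma, 24.3, 23.8 and 46.5 in the Ets1 spleen set and 20.49, 23.2 and 26.7 in the Grk2 spleen set. Aldolase A (*Aldoa*) was at 999.5, 946 and 899 in the parenchyma, 439.6, 412 and 365 in the Ets1 spleen set and 234, 218 and 216 in the Grk2 spleen set. Both genes were higher in all parenchymal libraries, with log2 fold changes of 2.04 ± 0.24 against the Ets1 set and 2.39 ± 0.24 against the Grk2 set (limma adjusted p = 1.13e-07 and 5.88e-09) for *Hk1* and 1.23 ± 0.11 and 2.08 ± 0.11 for *Aldoa*. *P4ha1*, a collagen prolyl hydroxylase and a target of HIF-1, was at 103, 48.9 and 91.7 in the parenchyma, 10.1, 5.95 and 11.3 in the Ets1 spleen set and 11.3, 15.8 and 12.4 in the Grk2 spleen set. *Egln3*, the oxygen sensor PHD3, was at 38.0, 48.9 and 36.3 in the parenchyma, 12.1, 19.8 and 19.7 in the Ets1 spleen set and 8.20, 10.6 and 16.2 in the Grk2 spleen set. Not all members moved, since *Ldha* (-0.11 ± 0.28 and 0.88 ± 0.28) and *Hk2* (0.017 ± 0.20 and 1.44 ± 0.20) were not called against both sets.

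The core ACGTG of the hypoxia response element was in the promoters of 9 of the 12 tested hypoxia genes with a window, beside 19.7% of all promoters and 27.6% of those tested. Among genes that rose by over 1 against both sets it was in 27.9%. The promoters of *Hif1a* (chr6:98359648-98359947, plus strand), whose level rose, and of *Tnfrsf9* (chr5:166664244-166664543, plus strand), the gene with the largest rise, are given with capitals at ACGTG (or CACGT) and CCAAT (or ATTGG) for *Hif1a*, and at GGAAAA, the core of NFAT sites, for *Tnfrsf9*. ACGTG and CACGT overlap where CACGTG occurs.
Hif1a: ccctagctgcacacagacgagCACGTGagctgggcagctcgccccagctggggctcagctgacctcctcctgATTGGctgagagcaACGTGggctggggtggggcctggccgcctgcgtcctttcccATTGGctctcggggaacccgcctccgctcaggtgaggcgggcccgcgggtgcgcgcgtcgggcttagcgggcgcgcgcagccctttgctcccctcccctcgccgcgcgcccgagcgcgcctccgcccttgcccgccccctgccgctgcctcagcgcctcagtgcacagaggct
Tnfrsf9: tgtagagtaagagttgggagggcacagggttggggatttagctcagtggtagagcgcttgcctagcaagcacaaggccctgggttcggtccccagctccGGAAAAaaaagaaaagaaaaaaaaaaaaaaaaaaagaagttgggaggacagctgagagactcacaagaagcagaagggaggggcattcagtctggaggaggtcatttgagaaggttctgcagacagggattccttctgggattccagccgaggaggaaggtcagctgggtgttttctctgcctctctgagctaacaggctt

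GGAAAA is a frequent element, found in 24.3% of all promoters, 20.9% of those of genes tested and 21.9% of those of genes that rose by over 1.

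A further group that fell holds S100 proteins, annexins, galectins and vimentin, which link membrane and cytoskeleton and are high in activated and migrating lymphocytes. Of 21 tested members 15 were lower (71.4%, beside 11% of all genes) and 0 higher, with median log2 fold changes of -1.59 and -1.14. The summed level was 7493, 8242 and 7411 in the parenchyma, 20537, 21569 and 21752 in the Ets1 spleen set and 21148, 18843 and 19236 in the Grk2 spleen set. The summed levels of both spleen sets were close to each other, and that of the parenchyma was far below either. Single members did differ between the spleen sets, with 10 of 21 higher and 9 lower in the Ets1 than in the Grk2 set. *S100a11*, a calcium-binding partner of annexins, was at 4.32, 5.24 and 3.63 in the parenchyma, 51.5, 43.7 and 36.6 in the Ets1 spleen set and 26.6, 16.9 and 14.3 in the Grk2 spleen set. *Crip1*, a LIM domain protein, was at 559, 608 and 542 in the parenchyma, 2021, 2293 and 1647 in the Ets1 spleen set and 2061, 1641 and 1837 in the Grk2 spleen set. Log2 fold changes were -1.79 ± 0.11 against the Ets1 set and -1.69 ± 0.11 against the Grk2 set (limma adjusted p = 2.34e-12 and 6.46e-12) for *Crip1* and -3.05 ± 0.33 and -1.87 ± 0.33 for *S100a11*. *Lmna*, the gene of lamins A and C, was at 0, 1.75 and 8.17 in the parenchyma, 7.07, 12.9 and 12.7 in the Ets1 spleen set and 49.2, 52.8 and 50.6 in the Grk2 spleen set. Replicate 3 of the parenchyma overlapped the Ets1 spleen set in *Lmna*. *Vim*, the intermediate filament vimentin, which was singled out after its values were seen, was at 1695, 1905 and 1747 in the parenchyma, 6555, 6344 and 8586 in the Ets1 spleen set and 4791, 4396 and 4698 in the Grk2 spleen set. *Vim* had log2 fold changes of -1.99 ± 0.11 against the Ets1 set and -1.38 ± 0.11 against the Grk2 set (limma adjusted p = 8.76e-14 and 9.52e-11).

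Of 22 tested factors of quiescence and of naive or memory T cells 3 were higher (13.6%) and 4 lower (18.2%), near the shares of all genes (9.29% and 11%). *Zfp36l1*, an mRNA decay factor, was at 1568, 1501 and 1364 in the parenchyma, 717, 788 and 687 in the Ets1 spleen set and 647, 791 and 746 in the Grk2 spleen set. The PI3K inhibitor *Pik3ip1* was at 43.2, 63.8 and 50.8 in the parenchyma, 8.08, 14.9 and 14.1 in the Ets1 spleen set and 6.15, 10.6 and 14.3 in the Grk2 spleen set. The chromatin organiser *Satb1* was at 888, 795 and 799.8 in the parenchyma, 417, 441 and 418 in the Ets1 spleen set and 462, 526 and 535 in the Grk2 spleen set. These 3 rose. *Klf3* (-1.44 ± 0.11 and -0.97 ± 0.11), *Klf6* (-1.35 ± 0.22 and -2.03 ± 0.22), *Tob2* (-0.35 ± 0.12 and -0.53 ± 0.12) and the antiproliferative gene *Btg2* (-0.69 ± 0.14 and -1.38 ± 0.14) fell.

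Among genes linked to tissue residency 6 of 18 tested were higher (33.3%, beside 9.29% of all genes) and 3 lower (16.7%, beside 11%), most of them named above. Median log2 fold changes were 0.81 against the Ets1 set and -0.0075 against the Grk2 set. Against the Ets1 set alone 11 were higher and 4 lower, whereas against the Grk2 set alone 6 were higher and 6 lower. *Rgs16*, with spleen means under 10, passed the count minimum through its parenchymal level. Without a filter beyond 1 read, 6 of 26 members were higher and 3 lower against both sets. *Bhlhe40*, a factor of cytokine production and of resident T cells, was at 150.3, 172 and 159.8 in the parenchyma, 88.9, 73.4 and 60.6 in the Ets1 spleen set and 58.4, 71.7 and 68.8 in the Grk2 spleen set. *Bhlhe40* had log2 fold changes of 1.12 ± 0.17 against the Ets1 set and 1.27 ± 0.17 against the Grk2 set (limma adjusted p = 5.51e-06 and 5.54e-07). *Rgs10* was lower (-0.56 ± 0.20 and -1.47 ± 0.20), with its call lost under 5 of 23 alternatives. The residency integrin *Itgae* had log2 fold changes of -0.76 ± 0.22 and -0.22 ± 0.22 and was not called against both sets.

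On the list of genes induced by dissociation of tissue, no tested member was called higher in the parenchyma against both sets. Of 16 tested members 0 were called higher, beside 9.29% of all genes, and 3, *Btg2*, *Ier2* and *Hsph1*, lower (18.8%, beside 11%). Median log2 fold changes were -0.46 and -0.012. Against the Ets1 set alone 2 were higher and 9 lower, and against the Grk2 set alone 5 were higher and 6 lower. The immediate early gene *Egr1*, which rose, was counted under reactivation and not on this list. Effects of isolation were not tested. *Ier2* was at 330.0, 314 and 289.6 in the parenchyma, 419, 448 and 332 in the Ets1 spleen set and 776, 894 and 869 in the Grk2 spleen set. Its call was lost under 5 of 23 alternatives. The summed level was 8211 to 8283 in the parenchyma, 9543 to 13427 in the Ets1 spleen set and 5324 to 5751 in the Grk2 spleen set, so that the parenchyma lay between both.

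Few interferon-stimulated genes were called. Of 34 tested members 1, *Oasl*, was higher and 3, *Irf1*, *Irgm* and *Psmb9*, lower, near or below the shares of all genes, with median log2 fold changes of 0.032 and -0.26. *Irf1*, a factor induced by interferon-γ, was at 404, 337 and 349.5 in the parenchyma, 649.8, 571 and 525 in the Ets1 spleen set and 496, 634 and 629 in the Grk2 spleen set, with -0.68 ± 0.12 against the Ets1 set and -0.68 ± 0.12 against the Grk2 set (limma adjusted p = 5.15e-05 and 2.93e-05). *Psmb9*, a subunit of the immunoproteasome, was at 314, 316 and 317 in the parenchyma, 549.7, 505 and 308 in the Ets1 spleen set and 936, 830.3 and 875 in the Grk2 spleen set, with replicate 3 of the Ets1 set below the parenchyma. It was one of 4 of 35 tested proteasome genes that were lower (11.4%, beside 11% of all genes), while *Psma6* was the 1 that was higher. The count of 4 moved to 1 without replicate 1 or 2 of the Ets1 spleen set, to 2 without replicate 1 or 3 of the parenchyma or any replicate of the Grk2 spleen set, and to 6 without replicate 3 of the Ets1 spleen set. That last library also moved the interferon-stimulated genes that were lower from 3 to 5. *Oasl* lost its call under 6 of 20 alternatives and *Psmb9* under 2 of 23. Of 5 tested rat MHC class II genes 2 were lower and 0 higher, beside 11% and 9.29% of all genes. All 5 were lower than in the Ets1 set, whereas against the Grk2 set 2 were lower and 1 higher. The list summed to 498, 518 and 450 in the parenchyma, 992, 881 and 1011 in the Ets1 spleen set and 497, 396 and 365 in the Grk2 spleen set. The count of lower genes was 0 of 2 tested at a mean of at least 50, and 3 without replicate 2 of the parenchyma. *RT1-Da* was at 24.2, 24.5 and 21.8 in the parenchyma, 81.9, 68.5 and 32.4 in the Ets1 spleen set and 72.8, 58.0 and 43.9 in the Grk2 spleen set. *RT1-Bb* was at 10.4, 8.74 and 6.35 in the parenchyma, 50.5, 41.7 and 26.8 in the Ets1 spleen set and 42.0, 22.2 and 16.2 in the Grk2 spleen set.

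The remaining lists held few calls. Of 21 genes of sterol synthesis and uptake 1, *Sc5d*, was higher (0.76 ± 0.18 and 0.64 ± 0.18) and 1 was lower. Each is 4.76%, beside 9.29% and 11% of all genes. Without replicate 1 of the Ets1 spleen set 2 were higher. Of 9 genes of sterol and lipid efflux the lipid droplet gene *Plin2* alone was higher (11.1%), with 1.60 ± 0.43 and 2.58 ± 0.43. In amino acid transport and mTORC1 signalling 4 of 21 were higher (19.0%, beside 9.29% of all genes). Among them were asparagine synthetase (*Asns*, 1.96 ± 0.43 and 1.88 ± 0.43), the pseudokinase *Trib3* (1.29 ± 0.27 and 2.69 ± 0.27) and *Mthfd2* (0.39 ± 0.12 and 1.56 ± 0.12). *Mthfd1* was lower (-1.32 ± 0.38 and -1.60 ± 0.38). The count of higher genes in this list fell to 2 without replicate 2 of the parenchyma. Of 19 metallothionein and antioxidant genes 3 were higher and 2, *Cat* and *Gpx1*, lower (15.8% and 10.5%, near the shares of all genes). *Gpx1* lost its call under 13 of 23 alternatives, and its groups overlapped. The count of lower genes was 1 without replicate 3 of the parenchyma or replicate 1 or 3 of the Grk2 spleen set, and 4 without replicate 3 of the Ets1 spleen set. The peroxiredoxin gene *Prdx5* stood out among them at 492, 494 and 364 in the parenchyma, 61.6, 59.5 and 54.9 in the Ets1 spleen set and 50.2, 61.2 and 62.1 in the Grk2 spleen set. *Prdx5* had log2 fold changes of 2.90 ± 0.15 against the Ets1 set and 2.93 ± 0.15 against the Grk2 set (limma adjusted p = 7.92e-14 and 5.54e-14). *Prdx2* (0.81 ± 0.12 and 0.61 ± 0.12) and the ferritin chain *Fth1* (0.83 ± 0.17 and 0.63 ± 0.17) changed less.

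Of 59 tested cytosolic ribosomal protein genes 7 were higher (11.9%, near the 9.29% of all genes) and 2 lower (3.39%, below 11%). *Rpl9* (1.17 ± 0.21 and 1.26 ± 0.21) and *Rps18l1* (0.93 ± 0.16 and 3.13 ± 0.16) were among the genes that rose. The count of lower genes was 1 without replicate 3 of the parenchyma. Many of these genes have near-identical copies, so that their counts are uncertain. Of 12 tested genes of the mitochondrial genome 3 were higher and 0 lower, beside 9.29% and 11% of all genes. These 3 were *Mt-nd6* (2.02 ± 0.15 and 1.32 ± 0.15), *Mt-nd5* (0.57 ± 0.11 and 1.52 ± 0.11) and *Mt-atp8* (0.52 ± 0.11 and 2.02 ± 0.11). *Mt-nd6* is the protein gene on the opposite strand of that genome, and the strand used in counting is not given in the sources used here.

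**Figure D5:**
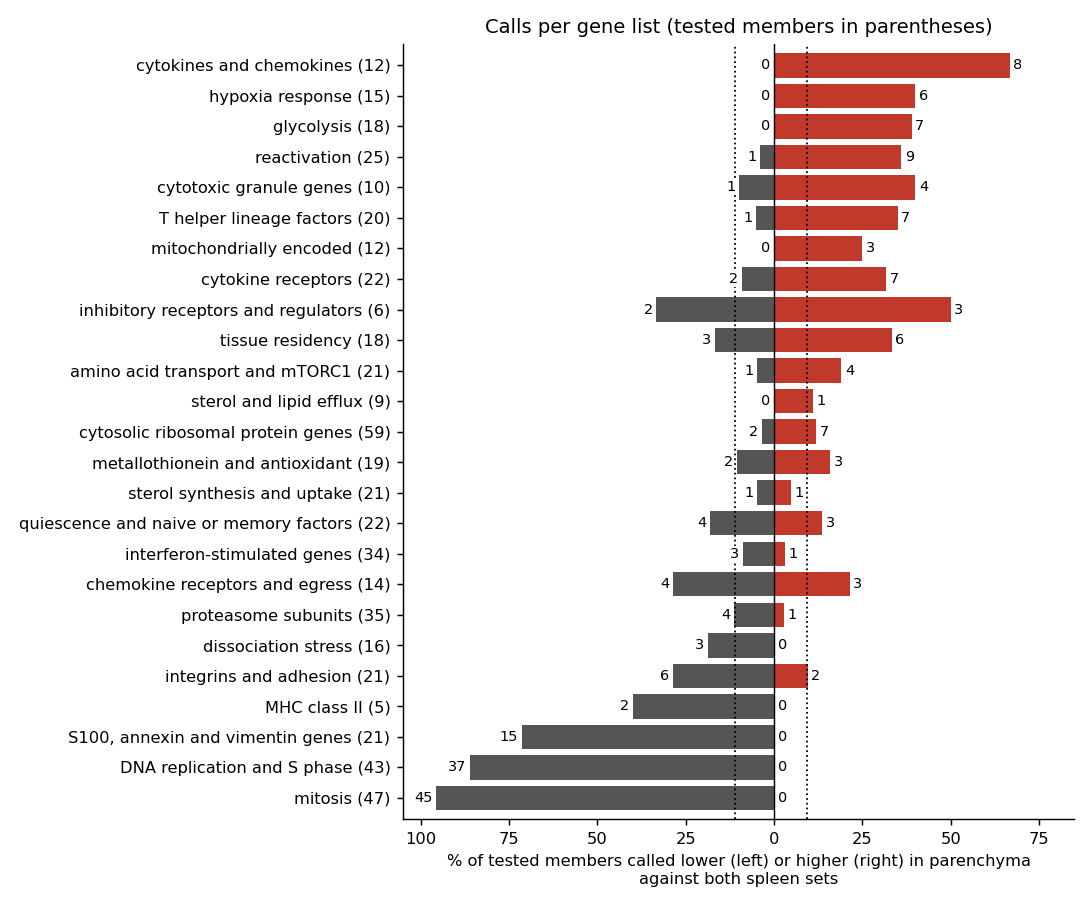
Share of the tested members of 25 gene lists called higher (right, red) or lower (left, grey) in the parenchyma against both spleen sets, in percent, with the number of genes at each bar. Dotted lines mark the shares over all genes, 9.29% and 11%. Mitosis (45 of 47 lower) and cytokines and chemokines (8 of 12 higher) are at the ends.

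Some of the largest differences lay between both spleen sets and not between tissues. *Ptma*, the gene of prothymosin α, was at 1239, 1434 and 1233 in the parenchyma, 1936, 1449.9 and 2724 in the Ets1 spleen set and 51.2, 54.9 and 47.8 in the Grk2 spleen set, a difference between the spleen sets of 5.24 ± 0.15 on the log2 scale (Ets1 minus Grk2 set, limma adjusted p = 5.41e-19). *Pole3*, a subunit of DNA polymerase ε, was at 25.1, 35.0 and 31.8 in the parenchyma, 81.9, 67.5 and 70.4 in the Ets1 spleen set and 2.05, 2.11 and 3.82 in the Grk2 spleen set. *Gem*, a small GTPase, was at 9.50, 12.2 and 16.3 in the parenchyma, 0, 3.97 and 4.23 in the Ets1 spleen set and 77.9, 83.3 and 60.2 in the Grk2 spleen set. *Cd83*, an activation marker, was at 12.1, 10.5 and 9.99 in the parenchyma, 2.02, 0 and 1.41 in the Ets1 spleen set and 38.9, 42.2 and 27.7 in the Grk2 spleen set. In all 4 genes the mean of the parenchyma lay between those of both spleen sets, so that none of them was called by the rule. *Ptma* has near-identical copies, and its counts are uncertain.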

How the data were processed

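Sorted control T-MBP cells were profiled by 3′ mRNA-seq in 3 libraries per group. According to the methods and the submitters' processing notes, reads were aligned with STAR (2.7.2b) to rat Rnor 6.0, counted per gene with HTSeq (1.0.0) and scaled by size factors of DESeq2 (2.11.40.7), with tissues and experiments in separate tables. The signal values deposited by the authors are such gene counts divided by size factors. Dividing each library by its smallest step recovered whole reads for 100% of values (tolerance 0.01), from 9635 to 10907 genes per library. A further 9 columns of the rat tables, of KO cells, were not used here, nor were the 8 columns of the human table.

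Reads of all 9 libraries were scaled together with poscounts size factors, and genes with a mean normalised count of at least 10 were tested on log2(normalised count + 1) in 1 limma (3.58.1, R 4.3.3) fit of 3 groups with a trended variance and Benjamini-Hochberg adjustment over 7041 genes. Genes were called at an adjusted p under 0.05 against both spleen sets in the same direction. Alternatives used edgeR (4.0.16), DESeq2 (1.42.0), other scalings, filters, pseudocounts, thinned reads, a replicate block and left-out libraries, and the fit was tested on simulated data. Sequences and motif counts come from RefSeq promoters (GRCr8), the first listed start per symbol.

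The groups, lists and tests were chosen with earlier results of these data known. Named genes were the 12 largest changes in each direction, by the smaller fold change, without overlap of the groups and with a mean of at least 50 in the higher tissue, up to 3 called members per list and direction, the genes the study names, leading markers, and the 5 largest differences in each direction between the spleen sets. The pattern for ribosomal protein genes was corrected after the data were seen, to leave out S6 kinases. Of 192 symbols shared by several gene identifiers, the one with the highest mean was used. Listed symbols that matched no gene were not analysed here, and a few genes counted in the lists are not reported here by name.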

Additional observations from a re-analysis of the deposited data

Results flagged for a closer look

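The size of the change between parenchyma and spleen depended on the spleen set used. As the parenchymal libraries are the same in both comparisons, the difference of the 2 fold changes equals the difference between the spleen sets, which the limma fit tested directly. Leading markers left aside, 34 named genes differed between the spleen sets at an adjusted p under 0.05 and by over 1 on the log2 scale, where all values below are the Ets1 minus the Grk2 spleen set. The chosen genes include 10 that were picked for this difference.

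Among 20 of them that were called in the same direction against both sets, the level was higher in the Ets1 spleen set for *Ccl4* (2.12), *Cdca8* (1.35), *Cdkn3* (1.29), *Cip2a* (1.1), *Gzma* (2.21), *Mt-atp8* (1.49), *Mthfd2* (1.17), *Rps18l1* (2.19), *S100a11* (1.18), *Trib3* (1.39), *Zbtb32* (1.2). It was lower in the Ets1 spleen set for *Ccr6* (-2.31), *Ctla4* (-1.55), *Ier2* (-1.09), *Il12rb2* (-1.74), *Il1r1* (-2.39), *Lmna* (-2.17), *Rap1gap2* (-1.03), *Rgs16* (-1.34), *Srgn* (-1.46). In 12 further genes the fold changes had opposite signs against the 2 sets, namely *Arid4b* (-5.13), *Cd83* (-4.24), *Foxo1* (-1.06), *Gem* (-4.65), *Hba-a1* (4.63), *Hsp90b1* (1.05), *Mt1* (3.81), *Nefl* (4.68), *Nr4a3* (-4.33), *Pole3* (4.37), *Polr2d* (-4.59), *Ptma* (5.24). In the remaining genes the signs were the same and the call was missing against 1 or both sets, namely *Cbfb* (-1.28), *Ska3* (1.26). *Hba-a1* is a haemoglobin gene and *Nefl* a neurofilament gene, and both moved with the Ets1 spleen set. The causes of these differences were not tested, and the experiment and the sets of libraries cannot be told apart.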

How the results depend on the processing

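The counts of genes called stayed within 1.5 times of the values reported under 23 alternatives (24 for the Ets1 set), except under stated filters. With a mean normalised count of at least 50, fewer genes were tested and the parenchyma differed from the Ets1 spleen set in 1773 genes and from the Grk2 set in 2296, both spleen sets differed in 2360, and against both sets 407 genes were higher and 480 lower, 90 and 137 of them by over 1 on the log2 scale. Without a filter beyond 1 read, 418 genes were higher by over 1. Leaving out 1 library at a time gave 2378 to 2896 genes against the Ets1 set, 3339 to 4123 against the Grk2 set, 3379 to 3867 between the spleen sets, 481 to 729 higher and 660 to 884 lower against both, and 219 to 272 and 301 to 371 by over 1. On the recovered reads, edgeR called 804 higher and 742 lower and DESeq2 603 and 678.

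Same-numbered libraries of different groups deviated together by r of -0.028 to 0.077 across genes, so that the numbers were not taken to pair samples. With the replicate block 668 genes were higher and 786 lower against both sets, and with the replicate block fitted in 6 libraries alone the number of genes differing between parenchyma and spleen of the Ets1 experiment was 2778. Of 109 named genes called against both sets, 92 kept the call under each alternative that tested them and 17 lost it under at least 1, and none changed direction. The filters left 18 to 23 alternatives per gene. These 17 were *Gnai2*, *Gpx1*, *Hsph1*, *Ier2*, *Il18r1*, *Itga1*, *Mthfd1*, *Mthfd2*, *Oasl*, *Psma6*, *Psmb5*, *Psmb9*, *Psmd8*, *Rgs10*, *Rpl41*, *Tox* and *Zbtb32*, and the cause was not tested. Each library held at most 1546206 reads, so that genes of few reads were not tested, among them 26 of 38 listed cytokines and chemokines.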
